A study of Rattus norvegicus with 10 samples.

Results

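Connexins are the proteins from which gap junctions are built, and 5 of them are known as the connexins of astrocytes and oligodendrocytes. Astrocytes use Cx43 (gene Gja1), Cx30 (Gjb6) and Cx26 (Gjb2), and oligodendrocytes use Cx32 (Gjb1) and Cx29 (Gjc3). The 5 genes Gja1, Gjb6, Gjb2, Gjb1 and Gjc3 were chosen by symbol, and all 5 were found among the 23487 genes of the count table, each under a single gene ID. A connexin hexamer in the membrane of one cell docks with a hexamer of its neighbour, and the channel so formed passes ions and small metabolites. In white matter these channels couple astrocytes to each other and to oligodendrocytes, a network known for carrying potassium and water away from active axons, while Cx29 is known to sit in the innermost myelin membrane without forming such channels between glia.

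The study asked how miR-145 acts on the oligodendrocyte lineage. The 10 libraries, 2 a group, hold mRNA of primary Sprague-Dawley rat cells that began as OPCs shaken off mixed glial cultures of P1-P3 cortices and cleared of other cells by adhesion, so that enriched cultures can still hold other glia. OPCs grew with FGF2 and PDGFAA and received an inhibitor of miR-145 (OPC anti-miR-145) or a scrambled inhibitor (OPC anti-miR-ctl), and were assayed 24 h after transfection. OLs were differentiated with T3 and CNTF and received a miR-145 mimic (OL miR-145), miR-145 and miR-219 mimics together (OL miR-145+miR-219) or a scrambled mimic (OL miR-ctl), and were assayed 5 days after transfection. Each oligonucleotide was used at 30 nM, delivered with a lipid reagent. One tag of the OL miR-145 libraries also names miR-219, whereas their titles and descriptions name miR-145 alone, and the methods paragraph on sequencing names lentivirus where the results name mimics. The study calls each N a biological replicate, for primary cells a culture from 1 mouse, and does not say what an N is for these rat cells, so p-values measure the spread between these libraries. Library totals ran from 33505668 to 42684176 counts.

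The mature miR-145-5p is shown because every group but the controls is defined by adding or inhibiting it. RefSeq places it at chr18:57370033-57370055 of the GRCr8 build, on the minus strand, and the labels state that the mimic has this mature form, while for the miR-219 mimic they name no arm. Capitals mark the seed, bases 2 to 8.
miR-145-5p: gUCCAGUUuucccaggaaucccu

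Gja1 (ENSRNOG00000000805), the gene of the main astrocyte connexin, was high in OLs of every group, and higher with miR-145 mimics than with miR-ctl. Levels are in CPM, the counts of a gene scaled to the same library total, with TMM normalization over the 10 libraries. Gja1 was at 645 and 381 CPM in OL miR-145, at 575 and 257 CPM in OL miR-145+miR-219, and at 159.5 and 161 CPM in OL miR-ctl. In OPCs it was at 1.79 and 2.47 CPM with anti-miR-145 and at 1.45 and 2.14 CPM with anti-miR-ctl. All 6 OL libraries were above all 4 OPC libraries, the lowest OL library by 64.5-fold over the highest OPC library. In order of the mean, OL miR-145 (513 ± 187 CPM, SD, n = 2) and OL miR-145+miR-219 (416 ± 225 CPM, SD, n = 2) overlapped, both lay apart from OL miR-ctl (160.5 ± 1.34 CPM, SD, n = 2), and the OPC groups overlapped each other.

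Gjb6 (ENSRNOG00000022116), which partners Gja1 in mature grey matter astrocytes, was close to the limit of detection. It had 13 and 9 counts in OL miR-145, 6 and 8 in OL miR-145+miR-219, and 14 and 7 in OL miR-ctl, which is between 0.148 and 0.375 CPM. The OPC libraries held 0 and 1 counts with anti-miR-145 and 0 and 2 with anti-miR-ctl, where a library with 0 counts allows up to 0.0745 and 0.0702 CPM respectively (3 counts). The 3 OL groups overlapped except that both OL miR-145+miR-219 libraries were below both OL miR-145 libraries, and exact 95% Poisson intervals of those 4 libraries overlapped. Such intervals and limits cover counting error only.

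Gjb2 (ENSRNOG00000008855), the third connexin of astrocytes, which leptomeningeal cells also express, was low in every group and had no step between OPCs and OLs. It ran from 0.491 to 1.16 CPM over the 6 OL libraries with a median of 1.06, and was at 0.472 and 0.772 CPM in OPC anti-miR-145 and 1.22 and 1.01 CPM in OPC anti-miR-ctl. Gjb2 and Gjb6 are neighbours on chromosome 15 in RefSeq, and only Gjb6 had higher values in all 6 OL libraries than in all 4 OPC libraries. No OPC library held more than 2 counts of Gjb6, so its values cannot show that the neighbours differ. Between the control groups, 81.7% of the genes tested did not overlap, in either direction.

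Gjb1 (ENSRNOG00000003746), the connexin of oligodendrocytes and their myelin that takes part in coupling to other glia, was present in OPCs already. Its level was 15.2 and 15.6 CPM in OPC anti-miR-145 and 13.3 and 15.0 CPM in OPC anti-miR-ctl. In OLs it was at 19.4 and 38.6 CPM with miR-145, at 31.8 and 68.4 CPM with both mimics, and at 18.4 and 36.0 CPM with miR-ctl. The OL groups overlapped each other, with replicate 2 above replicate 1 in each, and every OL library was above every OPC library. In OPCs the groups did not overlap but their means differed little, 15.4 ± 0.319 against 14.1 ± 1.19 CPM (SD, n = 2 each).

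Gjc3 (ENSRNOG00000001329), the gene of the adaxonal connexin of myelin, was low in OPCs and high in OLs whatever the mimic. It was at 70.7 and 122 CPM in OL miR-145, at 98.4 and 153 CPM in OL miR-145+miR-219 and at 82.9 and 129 CPM in OL miR-ctl. OPC anti-miR-145 had 2.58 and 3.90 CPM, below the 5.24 and 4.85 CPM of OPC anti-miR-ctl. The OL groups overlapped each other, and the lowest OL library exceeded the highest OPC library 13.5-fold.

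**Figure D1:**
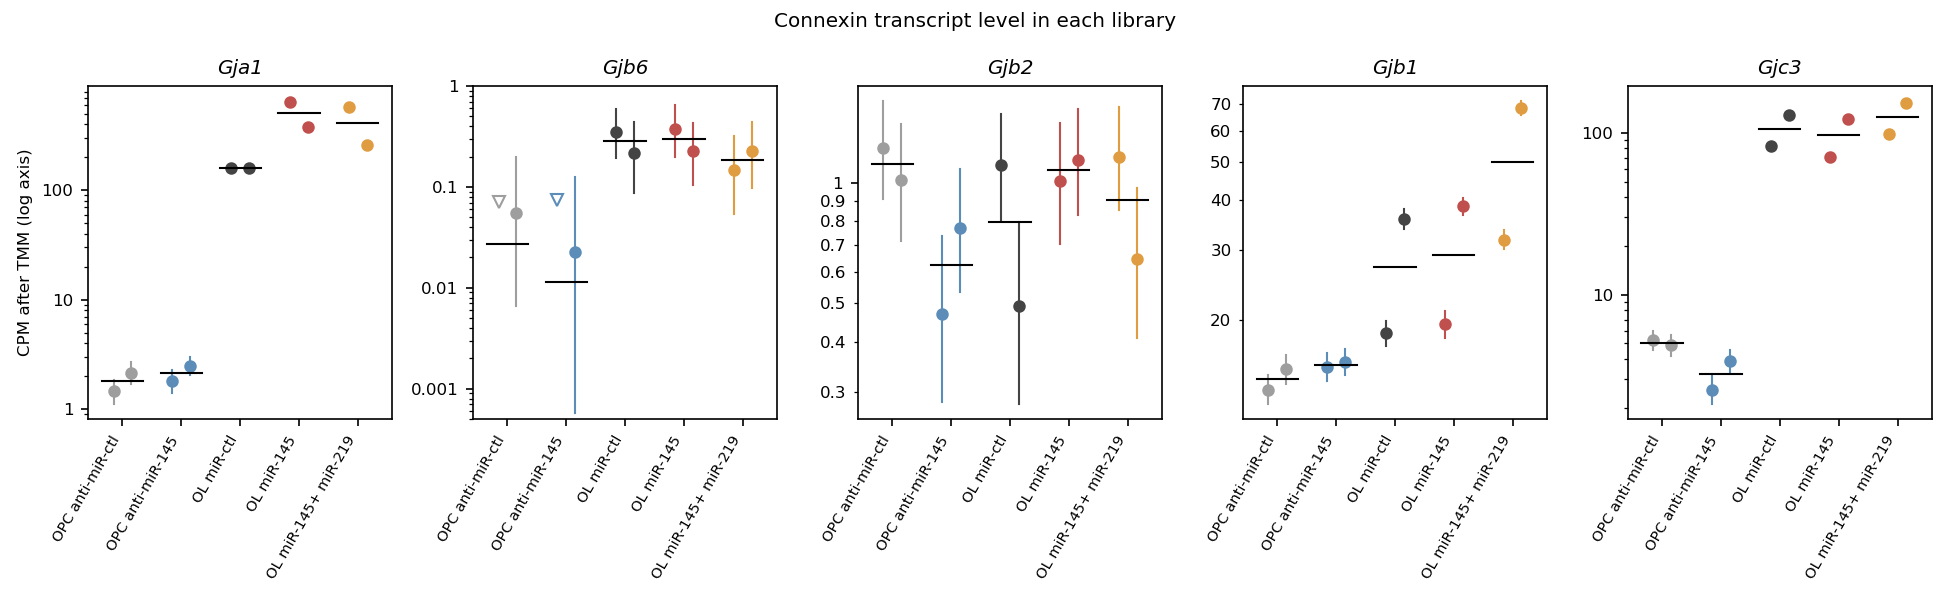
Level of each connexin gene in every library, in CPM on a log axis that differs between panels. Points are libraries with exact 95% Poisson intervals, black lines are group means, and open triangles mark the 3-count limit of libraries with 0 counts. Every gene but Gjb2 has all OL libraries above all OPC libraries, and the share of all genes with such a split was not computed. Between the control groups alone, 81.7% of the genes tested did not overlap, in either direction. Only Gja1 is apart between OL miR-145 and OL miR-ctl, against 47.3% of the genes tested in either direction.

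Astrocyte and oligodendrocyte connexins were set against each other as the share of Gja1, Gjb6 and Gjb2 in the counts of all 5 genes. The share is of counts and was not divided by transcript length, so it compares libraries, not the abundance of one gene with another. In OL miR-145 it was 87.8% (95% Clopper-Pearson interval 87.4% to 88.2%) and 70.4% (69.8% to 71.0%), and in OL miR-ctl 61.4% (60.4% to 62.3%) and 49.6% (48.7% to 50.6%). OL miR-145+miR-219 had 81.6% (81.1% to 82.0%) and 53.9% (53.1% to 54.6%), so one of its libraries lay between those of OL miR-ctl. The OPC libraries lay far lower, at 11.3% (9.19% to 13.7%) and 14.3% (12.2% to 16.7%) with anti-miR-145 and at 12.6% (10.5% to 14.9%) and 13.9% (11.6% to 16.4%) with anti-miR-ctl. Both OL miR-145 libraries were above both OL miR-ctl libraries, and the OPC groups overlapped. Without Gjb2 the mean share was 10.2% in OPC anti-miR-145 and 8.60% in OPC anti-miR-ctl, in place of 12.8% and 13.2%, so the order of the OPC means turned, and the libraries still overlapped. Gja1 supplied 99.1% to 99.8% of the astrocyte connexin counts in OLs and 54.4% to 79.1% in OPCs, where Gjb2 made up most of the rest.

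OL miR-145 and OL miR-ctl were compared to see what the mimic changes in differentiating cells. The log2 fold change of Gja1 was 1.68 (standard error 0.26), the 210th highest among 15461 genes tested, with an unadjusted p of 0.000937 and a Benjamini-Hochberg adjusted p of 0.158 in edgeR's quasi-likelihood test. Adjusted p-values under 0.05 were called, and edgeR called 0 of the 5 connexins and 0% of all genes. Gja1 was 1 of the 2067 genes with an unadjusted p under 0.05, and the other 4 connexins were not among them. DESeq2 on the same libraries called Gja1 (adjusted p = 2.33e-07) and none of the other 4, against 4.2% of all genes. When the edgeR model also held the replicate number, Gja1 alone of the connexins was called, beside 2272 of 15461 genes. In a fit of 4 libraries such a term leaves little spread to measure, so a small p from it is weak evidence. Gja1 had no shift common to the replicates, at 645 and 381 CPM in OL miR-145 and 159.5 and 161 CPM in OL miR-ctl. Whether equal numbers mark the same culture is not stated in the labels. Groups were without overlap for 1 of 5 connexins, Gja1, against 47.3% of the genes tested, where without overlap means that each library of one group was above each library of the other.

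The remaining connexins had small differences between OL miR-145 and OL miR-ctl relative to their errors. The log2 fold change was 0.07 (standard error 0.56) for Gjb6, 0.42 (0.48) for Gjb2, 0.10 (0.43) for Gjb1 and -0.13 (0.32) for Gjc3. Each of these 4 changed sign when some library was left out, while Gja1 stayed between 1.26 and 2.01.

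Astrocyte markers moved with Gja1, and their part in its difference was not tested. In bulk RNA, fewer cells of a type and less RNA per cell cannot be told apart. All 15 genes of the astrocyte list were tested, each was higher in OL miR-145 than in OL miR-ctl, 12 without overlap against 47.3% of all genes in either direction, at a median log2 fold change of 0.91 against -0.01 over all genes. EdgeR called 0 of them, and 11 had an unadjusted p under 0.05 against 2067 of 15461 genes tested. The list summed to 18762 and 14760 CPM in OL miR-145, 16170 and 12190 CPM in OL miR-145+miR-219, and 9918 and 10289 CPM in OL miR-ctl. Its most abundant gene in every OL library was Gfap, at 9708 and 6709 CPM in OL miR-145 and 4799 and 4179 CPM in OL miR-ctl, and none of its genes was at 0 in an OL library.

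The first genes of that list behaved alike, each with a log2 fold change below that of Gja1. Gfap, the astrocyte intermediate filament, had 0.88 (standard error 0.23), the water channel Aqp4 1.14 (0.16), the folate enzyme Aldh1l1 0.64 (0.29) and the glutamate transporter Slc1a2 0.88 (0.20). Over the whole list 13 of 15 genes had a smaller log2 fold change than Gja1. The other 2, Ntsr2 at 2.01 (0.38) and Slc4a4 at 1.74 (0.28), are named after their values were seen.

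OL markers had no common direction in the same comparison. Of 13 genes, 5 were higher and 8 lower in OL miR-145, at a median log2 fold change of -0.23, and 4 were lower without overlap, beside 3770 of 15461 genes tested. The list summed to 17972 and 27299 CPM in OL miR-145 and to 20665 and 34619 CPM in OL miR-ctl, led by Mbp in each. Of 7 OPC and lineage genes found, 5 were lower in OL miR-145 without overlap (47.3% of all genes were without overlap in either direction) and 2 were higher, at a median log2 fold change of -0.39 and with 0 called by edgeR. The list summed to 3389 and 3059 CPM in OL miR-145 and to 3755 and 3062 CPM in OL miR-ctl, with Ptprz1 the most abundant gene in each, and the part of both lists in the difference of Gja1 was not tested.

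**Figure D2:**
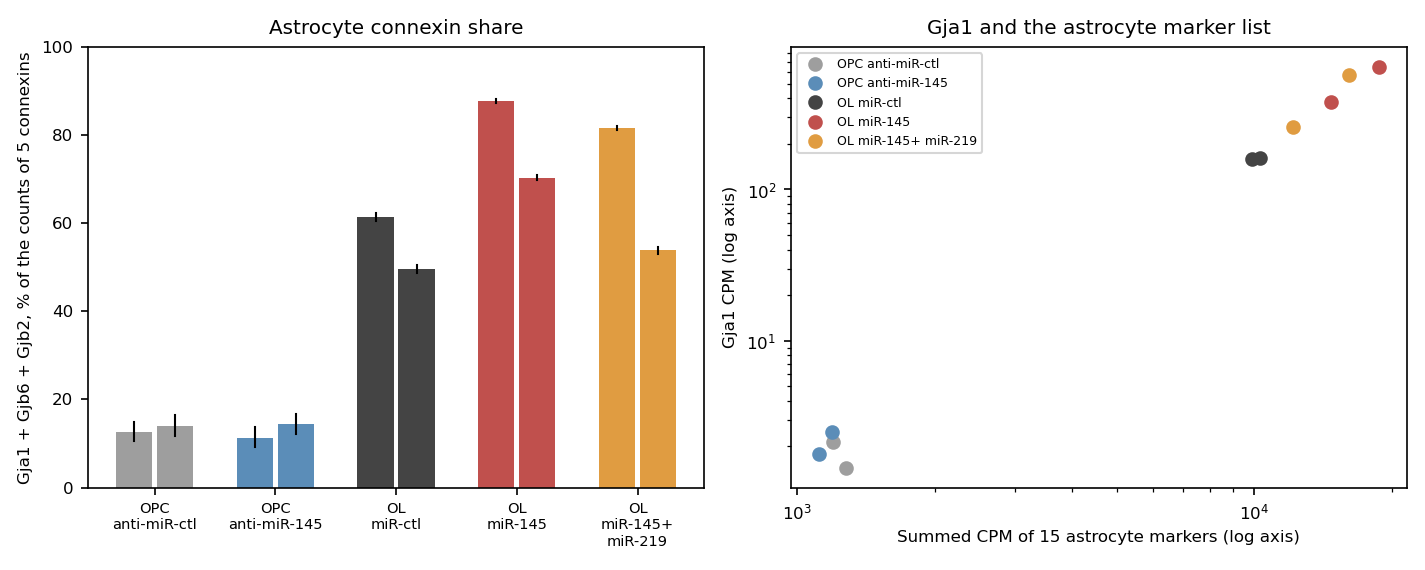
Left, counts of Gja1, Gjb6 and Gjb2 as a percent of the counts of the 5 connexin genes, a bar per library with its 95% Clopper-Pearson interval. Right, Gja1 against the summed CPM of 15 astrocyte markers, a point per library on log axes. Libraries with a higher astrocyte marker sum among the OLs had more Gja1, and the 4 OPC libraries lay at 1.45 to 2.47 CPM of Gja1.

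OL miR-145+miR-219 was compared with OL miR-ctl, and since the 3 comparisons among OL groups share libraries, their values stand side by side and are not separate evidence. Gja1 was above OL miR-ctl by 1.38 on the log2 scale (standard error 0.38), with an unadjusted p of 0.0152 and an adjusted p of 0.800 from edgeR. It was again the single connexin of 5 without overlap, against 36.7% of genes, and edgeR called 0 of the 5 and 0% of 15436 genes, with 956 genes, Gja1 alone of the connexins, at an unadjusted p under 0.05. The DESeq2 test called Gja1 (adjusted p = 0.0224), so 1 of 5 connexins against 0.687% of genes. When the edgeR model also held the replicate number, Gjb1 alone of the connexins was called (adjusted p of 0.0285), beside 132 of 15436 genes. Gja1 was at an adjusted p of 0.0817 in that edgeR fit. Without replicate 1 of OL miR-145+miR-219 the log2 fold change of Gja1 was 0.69, and without replicate 2 it was 1.84. The oligodendrocyte connexins had log2 fold changes of 0.89 (0.47) for Gjb1 and 0.25 (0.30) for Gjc3, with overlapping libraries, and with a library left out they ranged from 0.22 to 1.44 and from -0.11 to 0.60. The whole astrocyte list was again higher in 15 of 15 genes, 8 without overlap, with a median of 0.56, and its part was not tested.

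Adding miR-219 to miR-145 was compared directly between OL miR-145+miR-219 and OL miR-145. The astrocyte connexins had values below 0 and the oligodendrocyte connexins values above 0. None was called by edgeR or DESeq2 without a term for the replicate number. With that term edgeR called Gjb1 alone of the connexins (adjusted p of 0.00468), beside 184 of 15501 genes. The log2 fold changes were -0.31 (standard error 0.45) for Gja1, -0.69 (0.54) for Gjb6, -0.26 (0.41) for Gjb2, 0.77 (0.49) for Gjb1 and 0.37 (0.35) for Gjc3. With a library left out, Gja1 ranged from -0.99 to 0.16 and Gjb2 from -0.73 to 0.10, so their sign was not kept, while Gjb6 ranged from -1.01 to -0.31, Gjb1 from 0.11 to 1.37 and Gjc3 from 0.012 to 0.83. Without the replicate term, edgeR called 0 of 15501 genes, so 0% of genes and 0 of 5 connexins. Its unadjusted p was under 0.05 for 228 genes and 0 connexins. DESeq2 called 0.0581% of genes and 0 of 5 connexins. Gjb6 alone was without overlap, against 24.8% of genes. Marker lists of these cell types had the same signs, with 14 of 15 astrocyte genes lower (median -0.33) and 13 of 13 OL genes higher (median 0.34). Microglia genes were lower too, with 0 of 12 higher (median -0.45). Of the fibroblast, mural and meningeal genes, 1 of 7 was higher (median -0.58). The part of these lists was not tested.

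Inhibition of miR-145 was compared in OPCs, where the mimic's counterpart is a loss of the microRNA. Of 5 connexins 4 passed the filter of at least 5 counts in at least 2 libraries, Gjb6 not among them. EdgeR called 0 of these 4 and 28.1% of all genes, and DESeq2 called 0 of 4 and 26.5%. The log2 fold change of Gjc3 was -0.62 (standard error 0.22), with an unadjusted p of 0.0238 and an adjusted p of 0.0725 from edgeR, and that of Gjb2 was -0.82 (0.34), with 0.0482 and 0.119. These were the 2 connexins with an unadjusted p under 0.05, beside 6331 of 15496 genes. Without replicate 2 of OPC anti-miR-145 both were called, Gjc3 at -0.94 (edgeR adjusted p of 0.00365, 0.00365 to 0.214 over the libraries left out) and Gjb2 at -1.21 (0.0332, 0.0332 to 0.389). That fit called 7133 genes in place of 4348, while leaving out a library of OPC anti-miR-ctl gave 2348 and 2407.

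Gja1 and Gjb1 differed little between the OPC groups. Their log2 fold changes were 0.27 (standard error 0.28) for Gja1, whose libraries overlapped, and 0.14 (0.11) for Gjb1. Groups were without overlap for Gjb2, Gjb1 and Gjc3, 3 of the 4, against 67.8% of genes. The astrocyte list moved both ways, with 4 of 14 tested genes called higher, 6 called lower and a median of -0.12, beside 28.1% of all genes called. Gfap was called higher, at 40.7 and 51.1 CPM against 8.23 and 7.81 CPM, while Slc1a2 was called lower at -1.22 on the log2 scale (standard error 0.26, adjusted p of 0.0144 from edgeR), and the summed list was at 1115 and 1193 CPM against 1277 and 1199 CPM. Glul was its most abundant gene in all 4 OPC libraries, and Ntsr2 was at 0 in replicate 1 of OPC anti-miR-145 and replicate 2 of OPC anti-miR-ctl. Of 13 OL genes, 9 were lower and 3 higher without overlap, against 67.8% of genes in either direction (median log2 fold change -0.22). EdgeR called 2 of them higher and 2 lower. Of 7 OPC and lineage genes it called 4 higher and 1 lower (median 0.33), against 28.1% of all genes. The part of these lists in the connexin differences was not tested.

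OL miR-ctl and OPC anti-miR-ctl are the control groups of each stage, and stage, medium, time after transfection and control oligonucleotide cannot be told apart between them. By edgeR, Gja1 was higher in OLs by 6.49 on the log2 scale (standard error 0.19, adjusted p of 4.39e-05), and Gjc3 by 4.38 (0.25, adjusted p of 0.000163). Gjb6 was called as well, at 3.33 (0.97, edgeR adjusted p of 0.0333). It passed the filter through its OL libraries, so it had to differ, and its call gives no support to a difference. Counting it, edgeR called 3 of 5 connexins, and without it Gja1 and Gjc3, against 57.5% of all genes. With a library left out the log2 fold change of Gjb6 ranged from 2.29 to 6.47. DESeq2 did not call Gjb6 (adjusted p = 0.0981), and without replicate 1 of OPC anti-miR-ctl its edgeR adjusted p was 0.128, while the alternatives that keep every library, DESeq2 among them, gave 0.0180 to 0.0981.

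Gjb1 and Gjb2 were not called by edgeR between the control groups. The log2 fold change of Gjb1 was 0.94 (standard error 0.32) and edgeR put its adjusted p at 0.0545, while DESeq2 called it (0.00972), which makes 3 of 5 connexins against 53.4% of genes. Leaving out replicate 1 or 2 of OL miR-ctl gave Gjb1 log2 fold changes of 1.36 and 0.39, both called by edgeR. Gjb2 had -0.47 (0.45) with overlapping libraries, and without replicate 1 of OL miR-ctl it was at -1.17 (edgeR adjusted p of 0.0289, 0.0289 to 0.983 over the libraries left out). Libraries were without overlap for 4 of 5 connexins, against 81.7% of genes.

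Markers of both glial types rose between the control groups beside the connexins. EdgeR called 14 of 15 astrocyte genes higher and 0 lower (median log2 fold change 2.69) and 11 of 13 OL genes higher and 0 lower (median 2.94), against 4531 of 15721 genes called higher, 57.5% called in either direction and a median of 0.01 over all genes. Astrocyte markers summed to 9918 and 10289 CPM in OL miR-ctl against 1277 and 1199 CPM in OPC anti-miR-ctl, and OL markers to 20665 and 34619 against 1793 and 1897 CPM. Aqp4 was at 168 and 186 CPM in OL miR-ctl and at 0.327 and 0.164 CPM in OPC anti-miR-ctl, and the OL gene Mbp was higher in OL miR-ctl by 5.19 on the log2 scale (standard error 0.41). OPC markers were split, 2 of 7 called higher and 5 lower. The part of these cell types in the connexin differences was not tested.

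**Figure D3:**
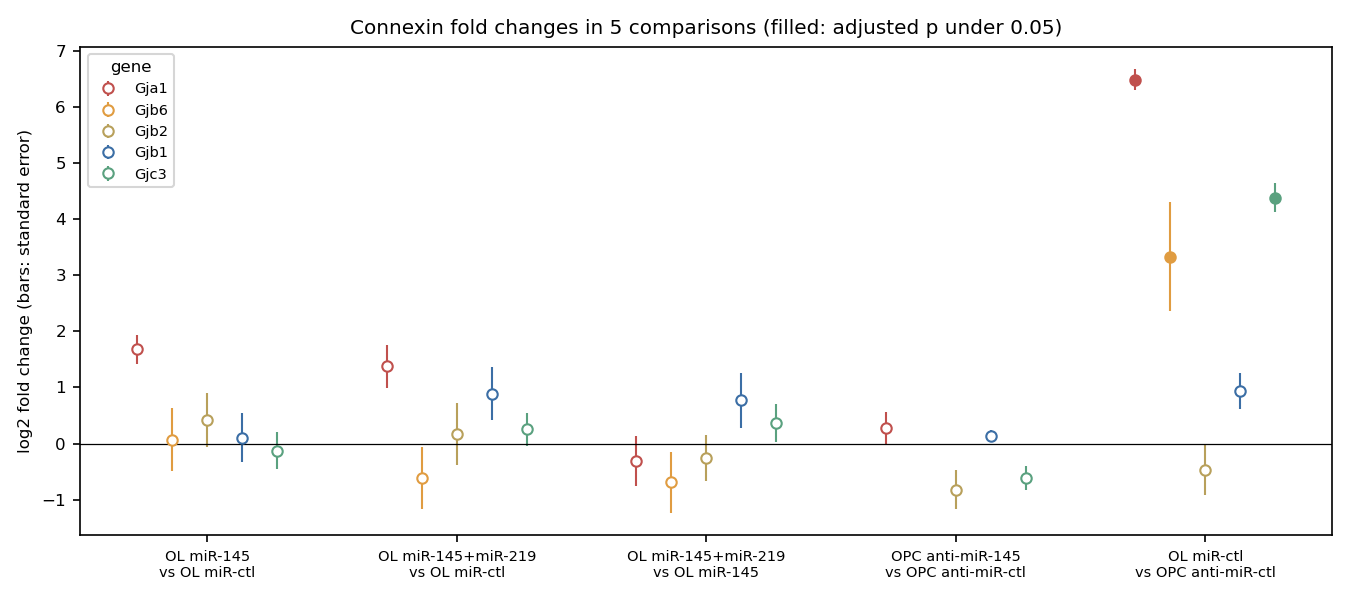
Log2 fold change of each connexin gene in the 5 comparisons, with its standard error. Points are filled where edgeR's adjusted p was under 0.05 without the replicate number in the model. Filled points occur between the control groups only, for Gja1, Gjb6 and Gjc3, and Gjb6 has no point between the OPC groups, where it was not tested.

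Of 15 further connexin genes 3 had a symbol match, and Gjc1 and Gja4 are given here. By edgeR, Gjc1 fell between the control groups by -1.33 on the log2 scale (standard error 0.38, adjusted p of 0.0301), while Gja4 had 0.41 (0.54) and was not called.

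Pannexins form related membrane channels that do not dock between cells, and 2 of 3 had a match. Panx1 was at 111 and 141 CPM in OL miR-ctl, 77.9 and 94.3 CPM in OL miR-145 and 47.2 to 48.5 CPM in OPCs, and by edgeR it rose between the control groups by 1.41 on the log2 scale (standard error 0.13, adjusted p of 0.000738). Panx2 was at 3.23 and 3.08 CPM in OL miR-145 against 0.804 and 1.29 CPM in OL miR-ctl, which is 1.60 on the log2 scale (0.34, adjusted p of 0.176 from edgeR). Both pannexins were thus without overlap, Panx1 lower and Panx2 higher in OL miR-145, against 47.3% of all genes in either direction. EdgeR called 0 of the 2 and 0% of all genes.

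Proteins that bind, anchor or modify connexins, such as the scaffold Tjp1, which binds the tail of Cx43, were all 10 found. Between OL miR-145 and OL miR-ctl edgeR called 0 of 10, with 7 higher and a median log2 fold change of 0.22. Between the control groups 5 rose and 2 fell, so 7 of 10 against 57.5% of all genes, among them Cav1 (log2 fold change 2.56, standard error 0.29, edgeR adjusted p of 0.00136) and the kinase Src, which phosphorylates Cx43 (-2.23, 0.14, edgeR adjusted p of 0.000199). In OPCs with anti-miR-145, where 3 of 10 stand against 28.1% of all genes, Dbn1 (0.91, 0.09, edgeR adjusted p of 0.00054) and Csnk1d (0.30, 0.08, edgeR adjusted p of 0.0341) rose and Cav1 fell (-1.34, 0.09, edgeR adjusted p of 0.00012).

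Genes of the glial potassium and water network, in which connexins share the load with channels and pumps, were found for 5 of 7. Mlc1, a membrane protein of astrocyte contacts, was at 610 and 474 CPM in OL miR-145, 563 and 351 CPM in OL miR-145+miR-219, and 176 and 198 CPM in OL miR-ctl, which is 1.54 on the log2 scale (standard error 0.17, adjusted p of 0.158 from edgeR) for the first over the last. Aqp4 was at 433 and 342 CPM in OL miR-145. The pump subunit Atp1b2 had 0.91 (0.18) in that comparison, and the chloride channel Clcn2 -0.20 (0.46), with 0 of 5 called by edgeR, 4 at an unadjusted p under 0.05 (2067 of 15461 genes tested) and all 5 below Gja1 in log2 fold change. Between the control groups 4 of 5 were called higher, against 57.5% of all genes called in either direction.

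Markers of other cells that such cultures can hold were also summed in each library. Microglia genes, all 12 found, summed to 534 and 1172 CPM in OL miR-145, 495 and 799.9 CPM in OL miR-145+miR-219, 502 and 705 CPM in OL miR-ctl, and 939 to 1175 CPM over the OPC libraries. Fibroblast, mural and meningeal genes, 7 of 11 found, summed to 108 to 207 CPM in OLs and 3.39 to 6.08 CPM in OPCs, with Ptgds the most abundant in OLs and Col3a1 in OPCs. Endothelial genes (4 of 6 found) summed to 2.18 to 21.1 CPM over the 10 libraries, neuronal genes (5 of 7) to 370 to 724 CPM, ependymal genes (2 of 5) to at most 3.06 CPM and Schwann cell genes (5 of 5) to 15.7 to 67.3 CPM. None of these summed levels was higher in both OL miR-145 libraries than in both OL miR-ctl libraries. By gene, all 12 microglia genes were higher in OL miR-145 than in OL miR-ctl (median log2 fold change 0.67), 5 of 12 without overlap against 47.3% of all genes in either direction. So were 5 of 6 tested fibroblast, mural and meningeal genes (median 1.86), all 5 without overlap, with 0 called by edgeR in either list, and their part in the difference of Gja1 was not tested.

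The genes most like each connexin were taken as the 3 with the highest Pearson correlation of log2(CPM + 1) over the 10 libraries, among 10398 genes with a symbol and a mean of at least 5 CPM. This is a description over libraries that fall into OLs and OPCs, and it has no p. For Gja1 they were Aldh1a1 (0.999), Ttyh1 (0.998) and Pla2g16 (0.998), for Gjc3 they were Pcsk6 (0.999), Mob3b (0.999) and Tmem151a (0.998), and for Gjb1 they were Kctd13 (0.978), Ubl7 (0.965) and Mast3 (0.963). Aldh1a1, a retinaldehyde dehydrogenase, was at 42.1 and 27.6 CPM in OL miR-145, 16.4 and 15.0 CPM in OL miR-ctl and at most 0.124 CPM in OPCs. Pcsk6, a proprotein convertase, was at 111 and 136 CPM in OL miR-ctl and 94.0 and 122 CPM in OL miR-145. By Spearman correlation none of the 3 genes stayed the same for any of the 3 connexins.

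Promoters are shown for Gja1, Gjb1 and Gjc3, whose OL libraries all lay above all OPC libraries and whose counts were not near the limit of detection. For Gjb1 the lowest OL library exceeded the highest OPC library by 1.18-fold only. RefSeq's GRCr8 table gave an entry for all 5 genes, with 2 starts for Gjb6, and the 250 bases before the annotated start were searched on both strands for ACAAT, a core that SOX factors bind, and TGANTCA, which AP-1 binds. The letters GGGCGG, known as the motif of Sp factors, and the core promoter element TATAAA were searched too. ACAAT was found once in Gjb1 and once in Gjc3, 135 and 198 bases before the start, and TGANTCA once in Gja1, 58 bases before it. Of all 33469 promoters, 30% held ACAAT and 6.34% held TGANTCA. The motif GGGCGG, held by 30.5%, was found in the windows of Gjb2 and Gjb6, and TATAAA, held by 12.9%, in none of the 5 genes. A match describes the letters only, and the start used in these cells was not measured. The window of Gja1 lies on the plus strand at chr20:36302314-36302563, Gjb1 on the plus strand at chrX:70541595-70541844 and Gjc3 on the minus strand at chr12:22024568-22024817, with matches in capitals.
Gja1: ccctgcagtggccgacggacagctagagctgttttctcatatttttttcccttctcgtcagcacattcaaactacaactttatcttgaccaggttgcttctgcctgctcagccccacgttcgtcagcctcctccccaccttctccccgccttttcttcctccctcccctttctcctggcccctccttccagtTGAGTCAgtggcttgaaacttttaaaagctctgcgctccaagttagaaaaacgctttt
Gjb1: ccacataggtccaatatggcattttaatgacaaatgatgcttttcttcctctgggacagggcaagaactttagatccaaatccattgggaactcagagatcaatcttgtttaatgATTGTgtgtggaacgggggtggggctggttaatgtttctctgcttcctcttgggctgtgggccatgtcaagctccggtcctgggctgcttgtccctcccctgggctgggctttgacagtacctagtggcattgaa
Gjc3: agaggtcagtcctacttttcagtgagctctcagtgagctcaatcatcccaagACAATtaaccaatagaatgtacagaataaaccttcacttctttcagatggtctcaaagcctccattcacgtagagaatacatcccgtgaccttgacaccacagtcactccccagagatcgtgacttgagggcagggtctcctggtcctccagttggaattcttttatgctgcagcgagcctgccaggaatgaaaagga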

How the data were processed

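Per the labels and the methods, the authors prepared stranded mRNA libraries, used Salmon 0.12.0 with the GENCODE transcripts of Rnor6.0 and tximport, and what the authors deposited are estimated counts for each gene. Counts were rounded to whole numbers. A further deposited table is the DESeq2 result by the authors for the miR-145 mimic over its control, with mean levels, log2 fold changes, errors, statistics and p-values. Of it, the pairing of gene IDs with symbols alone was used (14561 of 16129 genes have a symbol). Its other identifier column (entrezgene) was not used.

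Tests ran in R 4.3.3 (limma 3.58.1, edgeR 4.0.16 and DESeq2 1.42.0), and sequences and plots in Python 3.11.15 (matplotlib 3.10.9, pandas 2.3.3, numpy 2.4.6). Each comparison was fitted on its 4 libraries with edgeR (TMM, estimateDisp, glmQLFit, glmQLFTest, two-sided) over genes that reached 5 counts in 2 or more libraries, with Benjamini-Hochberg adjustment over all genes tested. The standard error is the log2 fold change divided by the square root of F. Replicates differed by more than counting error in every group. The code was tested on simulated data. Alternatives were DESeq2, its size factors within edgeR, 2 other filters, all 5 groups in 1 fit, a term for the replicate number, leaving out each library, other scalings of levels, the share without Gjb2, and Spearman correlation.

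Named were the 5 connexins, any gene of the lists of other connexins, pannexins, connexin partners and the potassium and water network, and of the cell type lists (astrocytes, OLs, OPCs, microglia, fibroblasts with mural and meningeal cells, endothelial cells, neurons, ependymal cells, Schwann cells) the most abundant gene of a group, genes at 0 and up to 4 in list order. Named also were the 3 genes most like each connexin with a mean of at least 1 CPM. A few genes that this rule names are not reported here. Members and lists were chosen with earlier results of these data known. Coordinates and sequences are RefSeq's GRCr8, not the build of the counts.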

Additional observations from a re-analysis of the deposited data

How the results depend on the processing

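With 2 libraries per group, a call rests on spread shared across genes, and the counts of Gjb6 limit any statement on it. The cause of each change below was not tested. No scaling, filter, test or shared fit reversed a connexin's direction.

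DESeq2 called 649 genes in OL miR-145 against OL miR-ctl, 106 in OL miR-145+miR-219 against OL miR-ctl and 9 against OL miR-145, where edgeR called 0 (2067, 956 and 228 at an unadjusted p under 0.05). Fitting all 5 groups together called 32 in the first and 2553 of the OPC comparison in place of 4348, and no filter on low counts called 1 in the second. In a fit of 4 libraries the term for the replicate number (block) leaves little spread to measure, so small p-values from it are weak evidence. It called 2272, 132 and 184 genes in the 3 OL comparisons. Of the connexins it called Gja1 for OL miR-145 over OL miR-ctl (adjusted p of 5.88e-23 from edgeR), Gjb1 for OL miR-145+miR-219 over OL miR-ctl (0.0285) and over OL miR-145 (0.00468), Gjc3 between the OPC groups (0.0478) and Gjb1 between the control groups (0.0231), none of which edgeR called without the term, and it no longer called Gjb6 between the control groups (0.0602). Deviations of same-numbered libraries correlated at 0.425, 0.488 and 0.657 in these, at -0.17 between the OPC groups and at 0.0754 between the control groups, and the labels do not tell whether equal numbers stand for the same culture.

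Between the control groups, the ependymal list had no gene left to test without a library of OL miR-ctl. With each library left out in turn, a lone library is assumed to vary like the other group. Genes called then ranged from 2348 to 7133 between the OPC groups and from 4780 to 10306 between the control groups. Log2 fold changes that reversed ranged, for OL miR-145 against OL miR-ctl, from -0.32 to 0.48 (Gjb6), -0.044 to 1.13 (Gjb2), -0.48 to 0.66 (Gjb1) and -0.58 to 0.22 (Gjc3). For OL miR-145+miR-219 against OL miR-ctl they ranged from -0.31 to 0.89 (Gjb2) and -0.11 to 0.60 (Gjc3), against OL miR-145 from -0.99 to 0.16 (Gja1) and -0.73 to 0.10 (Gjb2), and between the OPC groups from -0.016 to 0.55 (Gja1).

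Without Gjb2 the astrocyte connexin share of OPC anti-miR-145 was 10.2% in place of 12.8% and that of OPC anti-miR-ctl 8.60% in place of 13.2%, which reverses their order. The share per transcript length was not run, since no lengths were used here.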
